A study of Homo sapiens with 12 samples.

Results

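A set of 10 genes that carry a cell from G1 into S phase is described here: the transcription factors E2F1 and E2F2, the cyclins CCNE1 and CCNE2, the origin licensing factors CDC6 and CDT1, and the deoxynucleotide synthesis enzymes RRM1, RRM2, TYMS and TK1. They were chosen by gene name, all 10 were found, and they are 10 of the 58735 genes in the table. Expression was measured by RNA sequencing in MSTO-211H, an established human mesothelioma cell line, grown in suspension with EGF, bFGF and heparin from 100000 seeded cells per T25 flask. All the libraries come from this 1 line. The labels call the cells mesothelioma-initiating.

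There were 4 groups of 3 libraries. Con received vehicle and sham irradiation. IR received vehicle and 4 Gy. Rx received QTP at 10 µM and sham irradiation. Combo received QTP at 10 µM and 4 Gy. The labels give the titles and the treatments separately, so this reading of Rx and Combo rests on the group names. Irradiation followed QTP by a day, and RNA was taken 48 hours after irradiation. The labels name the compound only as QTP, and the series title speaks of dopamine receptor inhibition with radiotherapy. Whether the 3 libraries of each group were grown as separate cultures is not stated, and the p-values therefore cover library-to-library spread that could be technical only.

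E2F factors bind DNA with a DP partner and switch on the genes needed for DNA synthesis once cyclin-dependent kinases have lifted the block set by the retinoblastoma family. Cyclin E with CDK2 strengthens that switch and starts replication. CDC6 and CDT1 load the MCM helicase on origins in G1. Ribonucleotide reductase, thymidylate synthase and thymidine kinase then supply deoxynucleotides, and most of these genes are themselves known E2F targets.

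The promoter letters that E2F factors are known to favour are shown because they are what several of these genes have in common apart from the values. RefSeq promoters (GRCh38.p14), which run from 250 bases before to 50 bases after a start site and so span 300 bases, were matched by symbol for 9 of the 10 genes, in 11 windows. CCNE2 is named only. A search on both strands for TTTCCCGC, TTTGGCGC, TTTCGCGC and TTTGCCGC found a match in 5 of the 9 genes, against 3.31% of all 35116 windows. Here and for the other letters below, the counts are of genes but the shares are of windows. RRM2 and TK1 had 2 windows each. The matches are in capitals below. Each stretch is written 5′ to 3′ on the strand of its gene and ends at or before the start site, except that of CDC6, whose match begins 8 bases past it. A match written as GCGGCAAA or GCGGGAAA lies on the opposite strand. These are descriptions of letters, not of bound sites.
E2F1, chr20:33686386-33686448, minus strand: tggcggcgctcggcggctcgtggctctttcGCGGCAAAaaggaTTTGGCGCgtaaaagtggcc
E2F2, chr1:23531238-23531305, minus strand: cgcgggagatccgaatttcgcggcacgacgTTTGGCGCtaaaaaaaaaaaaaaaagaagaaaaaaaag
CDC6, chr17:40287856-40287893, plus strand: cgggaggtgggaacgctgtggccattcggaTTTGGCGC
CDT1, chr16:88803724-88803788, plus strand: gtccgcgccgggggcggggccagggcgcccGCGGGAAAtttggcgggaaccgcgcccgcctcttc
TYMS, chr18:657584-657651, plus strand: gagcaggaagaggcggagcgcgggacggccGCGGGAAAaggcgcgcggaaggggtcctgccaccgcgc

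E2F1 held 2 matches, which start 33 and 20 bases before its start site, and the other 4 genes held 1 each. CCNE1, RRM1, RRM2 and TK1 held none in these windows. Their windows held other promoter letters. CCAAT was found in 5 of the 9 genes (E2F1, CDC6, RRM1, RRM2 and TK1), against 34.6% of all windows. GGGCGG, the letters of a GC box, was found in 6 of the 9 (E2F1, CCNE1, CDT1, RRM1, RRM2 and TK1), against 45% of all windows. TTTGAA was found in RRM1 only, against 15.2%.

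Libraries held 13188257 to 18630958 reads, recovered from the deposited FPKM (reads per kilobase of gene, scaled to the library by the authors). Rx and Combo libraries were deeper on average, at 17253387 ± 2019535 and 18109511 ± 608132 reads (SD, n = 3), than those of Con and IR, at 15216794 ± 1757178 and 14861985 ± 722160. Of 10 mesothelial markers, 5 had a mean of at least 1 FPKM, among them MSLN at 40.1. WT1 was at 0.955, KRT5 at 0.690, UPK3B at 0.098, KRT19 at 0.050 and PDPN at 0. The summed level of the 10 was mostly that of KRT18, KRT8 and VIM, with means of 548.7, 476.5 and 232.2 FPKM. It was 1274 to 1503 FPKM in Con, 1273 to 1697 in IR, 1190 to 1501 in Rx and 900.3 to 1244 in Combo. Of 8 markers of other cell types, 7 were under 0.1 FPKM and COL1A1 was the exception, with sums of 1.81 to 3.00 in Con and 2.51 to 3.23 in Combo. The part of these markers in the results was not tested. In a bulk sample, fewer cells in S phase and less RNA per cell cannot be told apart.

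In the irradiated cells that also had QTP, 6 of the 10 genes (E2F1, CDT1, RRM1, RRM2, TYMS and TK1) lay below the lowest untreated library in all 3 libraries, as did 12.8% of all 13038 genes tested. The mean FPKM differed from Con by -47.6% for TK1, -38.1% for RRM2, -36.8% for CDT1, -28.2% for E2F1, -26.1% for RRM1 and -24.8% for TYMS, and by 2.57% for CCNE1. None of these differences passed the test across all genes: in limma, adjusted p in Combo against Con was 0.179 or more for every one of the 8 genes tested. The plot of levels by library shows all 10 genes.

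**Figure D1:**
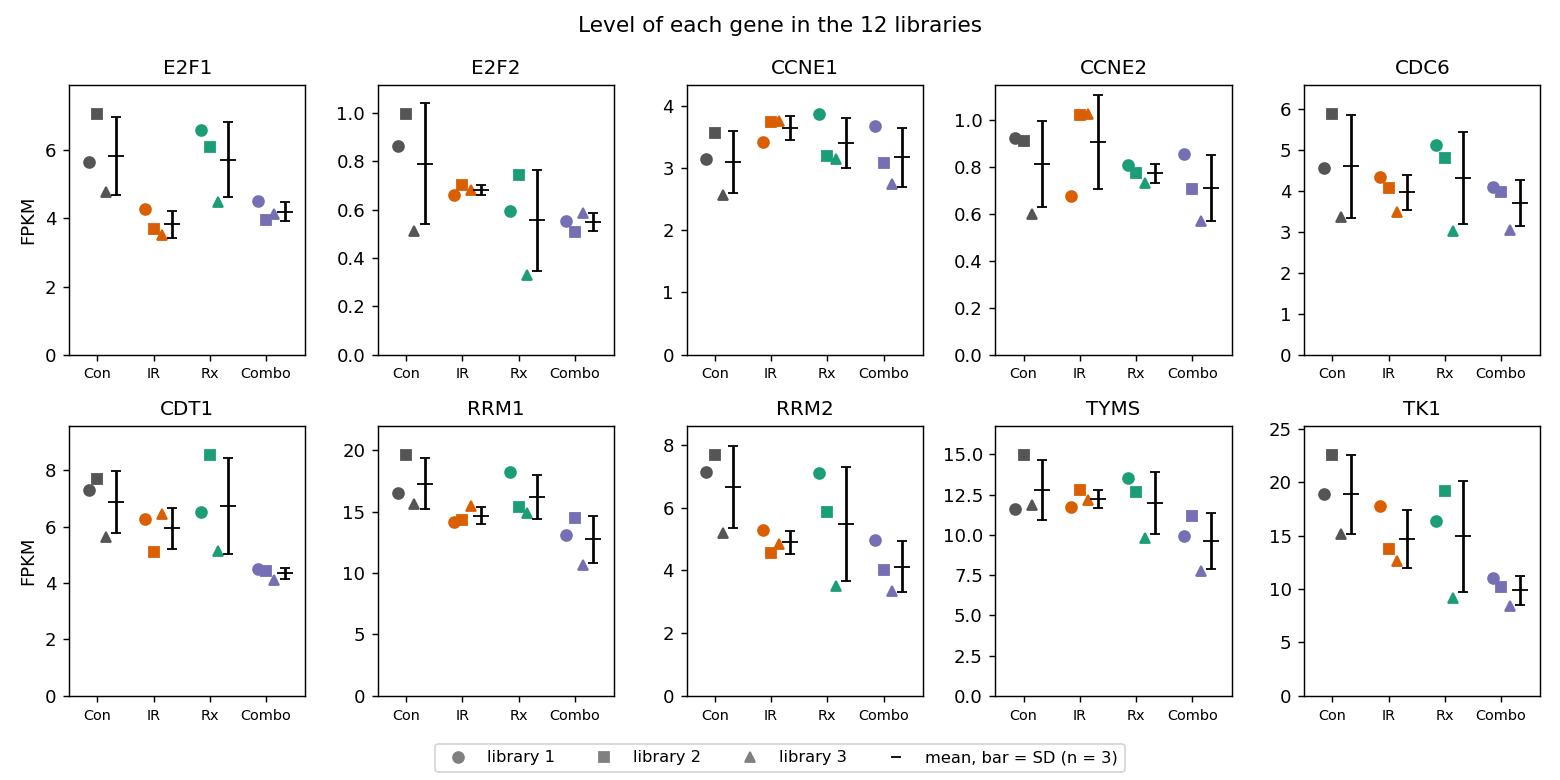
FPKM (y axis, from 0) of each gene in each of the 12 libraries, by group (x axis), with the mean and SD of the 3 libraries in black. TK1 lies at 8.40 to 11 in Combo and at 15.1 to 22.6 in Con, whereas CCNE1 overlaps in all groups.

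By mean level per length over the 12 libraries, RRM1 was highest at 15.2 FPKM, followed by TK1 at 14.6, TYMS at 11.7, CDT1 at 5.97, RRM2 at 5.30, E2F1 at 4.90, CDC6 at 4.14, CCNE1 at 3.33, CCNE2 at 0.80 and E2F2 at 0.644. The ranges over libraries overlapped between all neighbours in this order except CCNE1 and CCNE2. E2F2 and CCNE2 were under the mean of 1 FPKM needed for testing, so 8 of the 10 genes entered the tests. E2F2 rested on 27 to 91 reads a library and CCNE2 on 35 to 69.

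E2F1 (ENSG00000101412, hg38 chr20:33675683-33686404, minus strand) encodes the activator E2F best known for driving S phase entry. Its level was 5.66, 7.07 and 4.79 FPKM in the 3 Con libraries, 4.28, 3.68 and 3.52 in IR, 6.59, 6.10 and 4.49 in Rx, and 4.50, 3.96 and 4.12 in Combo. Both irradiated groups lay below every Con library, and Rx spanned much the same range as Con. The log2(FPKM + 1) difference from Con was -0.49 ± 0.14 (SE) in IR and -0.39 ± 0.14 in Combo, with limma adjusted p of 0.680 and 0.288. For Rx it was -0.02 ± 0.14. Combo stood 0.11 above IR, with a 95% interval of -0.20 to 0.41. With radiation averaged over both QTP arms the difference was -0.43 ± 0.10 (limma adjusted p = 0.349), and with QTP averaged over both radiation arms it was 0.04 ± 0.10 (adjusted p = 0.899).

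E2F2 (ENSG00000007968, hg38 chr1:23506430-23531220, minus strand), a second activator E2F, stood at 0.865, 0.997 and 0.511 FPKM in Con, 0.659, 0.702 and 0.682 in IR, 0.593, 0.744 and 0.331 in Rx, and 0.552, 0.510 and 0.585 in Combo. Combo lay below IR in every library, and no other pair of groups was separated. In a fit with no filter on low values the difference of Combo from Con was -0.20 ± 0.13 (limma adjusted p = 0.711). E2F1 exceeded E2F2 per length in every library, by a mean ratio of 7.67 ± 1.5 in Con, 5.63 ± 0.75 in IR, 10.96 ± 2.69 with Rx and 7.65 ± 0.56 with Combo.

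The rest of the E2F, DP and pocket protein genes showed no common shift. Of 11 listed, 10 were measured, and E2F8, a repressor E2F, was at 0.589 FPKM. None passed the adjusted threshold in any comparison. In Combo against Con, 5 were lower and 5 higher, with a median log2 difference of -0.03. Of all 13038 genes, 716 were higher at an unadjusted p under 0.05, and of these 10 genes 1 was. That was E2F7, a repressor E2F, at 6.79 ± 1.03 FPKM in Con, 6.67 ± 0.59 in IR, 7.38 ± 0.41 with Rx and 8.80 ± 0.80 with Combo (log2 difference of Combo from Con 0.34 ± 0.10, limma adjusted p = 0.213). RB1, the retinoblastoma protein that holds activator E2Fs in check, was at 7.79 ± 0.31 in Con and 7.83 ± 0.34 in Combo. RBL1, its relative p107, was at 2.30 ± 0.47 in Con, 1.81 ± 0.35 in IR and 1.85 ± 0.17 in Combo. E2F4, which acts mainly as a repressor with pocket proteins in resting cells, was far more abundant, at 53.8 ± 4.2 in Con and 50.3 ± 3.2 in Combo.

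The cyclin E genes, whose products activate CDK2, overlapped between all groups. CCNE1 (ENSG00000105173, hg38 chr19:29811898-29824308, plus strand) was at 3.14, 3.56 and 2.57 FPKM in Con, 3.42, 3.74 and 3.76 in IR, 3.87, 3.19 and 3.15 in Rx, and 3.68, 3.09 and 2.75 in Combo. No group lay wholly above or below another. The log2 difference from Con was 0.19 ± 0.11 in IR, 0.11 ± 0.11 in Rx and 0.03 ± 0.11 in Combo, with limma adjusted p of 0.757, 1.00 and 0.935. The 95% interval for Combo ran from -0.22 to 0.27.

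CCNE2 (ENSG00000175305), the second cyclin E, was at 0.924, 0.911 and 0.600 FPKM in Con, 0.676, 1.02 and 1.03 in IR, 0.809, 0.774 and 0.731 in Rx, and 0.854, 0.704 and 0.571 in Combo. No group was separated from another. CCNE1 exceeded CCNE2 in every library, with mean ratios of 3.87 ± 0.45 in Con, 4.13 ± 0.80 in IR, 4.4 ± 0.34 with Rx and 4.50 ± 0.27 with Combo. CCNE2 overlaps INTS8 (4.73 FPKM) and NDUFAF6 (1.97 FPKM) on the other strand, and whether the authors' counting used strand is not known, so its low values are uncertain.

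Among the G1 cyclins, kinases and inhibitors, 15 of 17 listed genes were measured, and CDKN2A and CDKN2B, inhibitors of CDK4 and CDK6, were at 0.117 and 0 FPKM. None of the 15 passed the adjusted threshold in any comparison. In Combo against Con, 7 were lower and 8 higher with a median of 0.00. Unadjusted p was under 0.05 for 4 lower genes, against 7.69% of all genes. It was also under 0.05 for 1 higher gene, against 716 of all 13038 genes. The higher gene was CDKN1A, the p53-induced inhibitor p21 that acts on cyclin E with CDK2, at 147 ± 11 FPKM in Con, 208 ± 22 in IR, 168 ± 12 with Rx and 211 ± 27 with Combo (Combo from Con 0.51 ± 0.11, limma adjusted p = 0.139). CDK2 itself was at 8.56 ± 0.94 in Con and 6.18 ± 1.00 in Combo (-0.42 ± 0.12, adjusted p = 0.198). CCNA2, the S and G2 cyclin, was at 11.7 ± 1.6 in Con, 9.04 ± 1.42 in IR, 9.78 ± 2.38 with Rx and 7.27 ± 0.97 with Combo (-0.62 ± 0.17, adjusted p = 0.181). CDKN2C, an inhibitor of CDK4 and CDK6, was at 1.97 ± 0.48 in Con and 1.28 ± 0.39 in Combo.

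Of the licensing factors, CDT1 was lower in every Combo library than in any other library, and CDC6 overlapped between all groups. CDC6 (ENSG00000094804, hg38 chr17:40287633-40304657, plus strand), the ATPase that helps recruit the helicase, was at 4.56, 5.87 and 3.35 FPKM in Con, 4.33, 4.05 and 3.49 in IR, 5.10, 4.79 and 3.02 in Rx, and 4.09, 3.96 and 3.05 in Combo. Combo differed from Con by -0.23 ± 0.19 (limma adjusted p = 0.612), and by -0.07 without Con 2, the highest library.

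CDT1 (ENSG00000167513, hg38 chr16:88803213-88809258, plus strand), the loading partner that geminin restrains, was at 7.29, 7.71 and 5.63 FPKM in Con, 6.26, 5.12 and 6.44 in IR, 6.53, 8.54 and 5.14 in Rx, and 4.50, 4.42 and 4.11 in Combo. Every Combo library lay below every library of the other 3 groups, and the 3 Combo values were close together (SD 0.21, n = 3). The log2 difference of Combo was -0.55 ± 0.15 from Con, -0.37 ± 0.15 from IR and -0.51 ± 0.15 from Rx, with limma adjusted p of 0.182, 0.247 and 0.545. IR and Rx differed from Con by -0.18 ± 0.15 and -0.04 ± 0.15. The interaction, which asks whether the Combo difference departs from the sum of the separate ones on the log2 scale, was -0.33 with a 95% interval of -0.80 to 0.14.

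All 16 listed licensing partners were measured, and all 16 were lower in Combo than in Con, as were 51.5% of all 13038 genes. The median log2 difference of the 16 was -0.33, against -0.01 for all genes. Unadjusted p was under 0.05 for 11 of them, against 7.69% of all genes called lower in that way, and 0 passed the adjusted threshold. In IR 12 of 16 were lower (median -0.17), against 47.4% of all genes, and in Rx 12 of 16 (median -0.07), against 48.3%. The named genes are subunits of the MCM helicase. MCM4 was at 16.4 ± 2.4 FPKM in Con, 13.9 ± 1.3 in IR, 14.5 ± 2.3 with Rx and 10.8 ± 1.6 with Combo (-0.56 ± 0.14, limma adjusted p = 0.15), and MCM7 at 39.6 ± 6.9 in Con and 27.5 ± 2.2 in Combo (-0.50 ± 0.13, adjusted p = 0.155). MCM3 and MCM6 differed from Con in Combo by -0.35 ± 0.11 and -0.26 ± 0.08.

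Ribonucleotide reductase, which makes deoxynucleotides from ribonucleotides, joins a large subunit (RRM1) with a small one (RRM2, or RRM2B outside S phase). RRM1 (ENSG00000167325, hg38 chr11:4094707-4138876, plus strand) was at 16.5, 19.6 and 15.6 FPKM in Con, 14.2, 14.3 and 15.4 in IR, 18.2, 15.4 and 14.9 in Rx, and 13.1, 14.4 and 10.7 in Combo. IR and Combo each lay below every Con library, and Combo also below every Rx library. Differences from Con were -0.22 ± 0.12 in IR, -0.09 ± 0.12 in Rx and -0.41 ± 0.12 in Combo, with limma adjusted p of 0.743, 1.00 and 0.186.

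RRM2 (ENSG00000171848, hg38 chr2:10120698-10131419, plus strand) was at 7.13, 7.68 and 5.18 FPKM in Con, 5.30, 4.57 and 4.85 in IR, 7.10, 5.87 and 3.51 in Rx, and 4.98, 4.03 and 3.36 in Combo. Combo lay below Con in every library, and Rx ranged from the Con level down to the Combo level. Differences from Con were -0.36 ± 0.20 in IR, -0.27 ± 0.20 in Rx and -0.58 ± 0.20 in Combo, with limma adjusted p of 0.743, 1.00 and 0.275. Without Rx 3 the Rx difference was -0.02. Reads of RRM2 copies were few, at most 3 in any library for RRM2P4, RRM2P2 and RRM2P3.

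RRM2B, the p53-induced small subunit, was at 29.8 ± 3.4 FPKM in Con, 34.6 ± 2.7 in IR, 29.2 ± 3.7 with Rx and 32.8 ± 3.9 with Combo, so it exceeded RRM2 per length in every group. The ratio of RRM2 to RRM2B was 0.229 ± 0.067 in Con, 0.143 ± 0.020 in IR, 0.193 ± 0.074 with Rx and 0.127 ± 0.032 with Combo. The lowest Con ratio was 0.154 and the highest Combo ratio 0.164, so the groups overlapped. RRM1 to RRM2 was 2.63 ± 0.36 in Con and 3.13 ± 0.48 in Combo, also overlapping.

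TYMS (ENSG00000176890, hg38 chr18:657604-673578, plus strand), which makes thymidylate from deoxyuridylate, was at 11.6, 15.0 and 11.8 FPKM in Con, 11.7, 12.8 and 12.1 in IR, 13.5, 12.6 and 9.81 in Rx, and 9.95, 11.2 and 7.77 in Combo. Combo lay below every Con and IR library and overlapped Rx. Differences from Con were -0.05 ± 0.14 in IR, -0.09 ± 0.14 in Rx and -0.38 ± 0.14 in Combo, with limma adjusted p of 0.945, 1.00 and 0.299. Without Combo 3 the Combo difference was -0.25. TYMS overlaps ENOSF1 (4.14 FPKM) and TYMSOS (1.41 FPKM) on the other strand, and without knowledge of strand some of its reads may belong to them.

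TK1 (ENSG00000167900, hg38 chr17:78174075-78187233, minus strand), the thymidine salvage kinase of cycling cells, showed the widest gap. It was at 18.9, 22.6 and 15.1 FPKM in Con, 17.8, 13.8 and 12.6 in IR, 16.4, 19.2 and 9.17 in Rx, and 11, 10.2 and 8.40 in Combo. Combo lay below every Con and IR library, and Rx overlapped it only through Rx 3. Differences from Con were -0.33 ± 0.23 in IR, -0.36 ± 0.23 in Rx and -0.86 ± 0.23 in Combo, with limma adjusted p of 0.770, 1.00 and 0.179. The 95% interval for Combo ran from -1.37 to -0.35. Without Rx 3 the Rx difference was -0.07. Averaged over both radiation arms, QTP differed by -0.44 ± 0.16 (adjusted p = 0.384).

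The plot of fitted differences sets the 8 tested genes side by side.

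**Figure D2:**
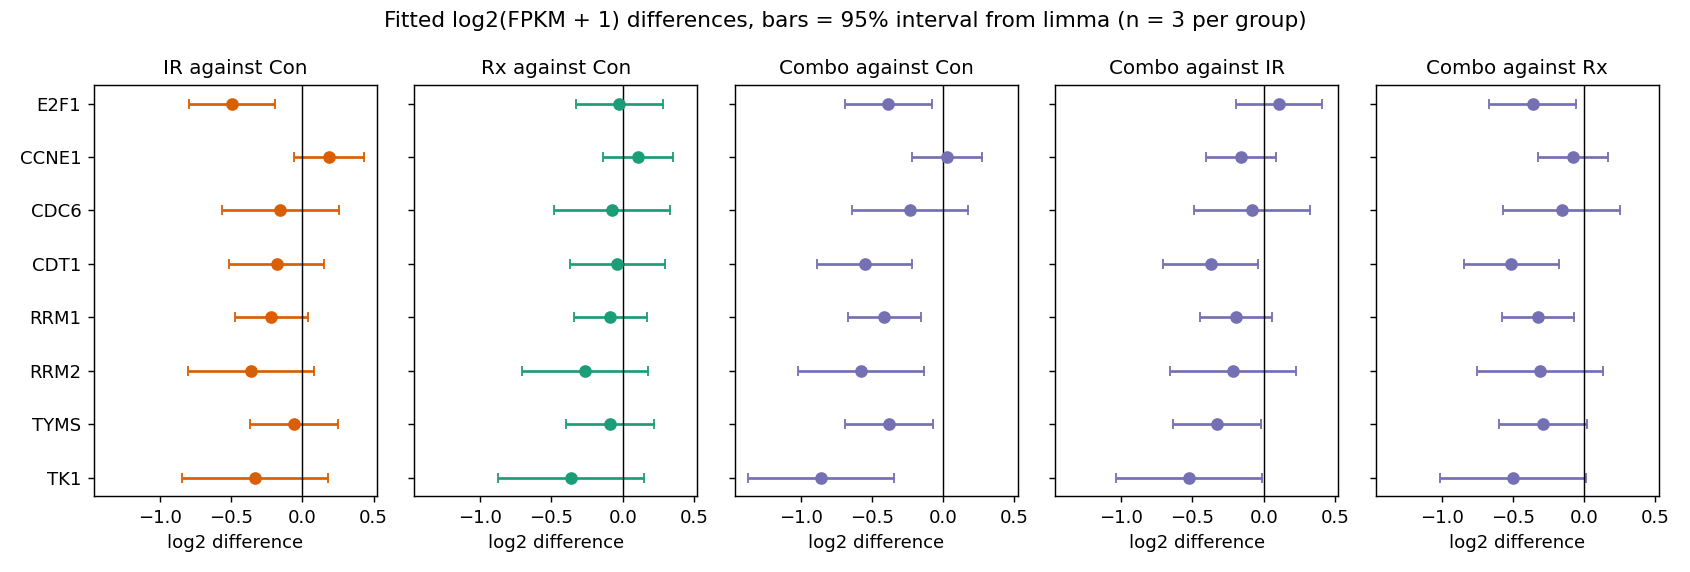
Fitted difference in log2(FPKM + 1) (x axis) of each tested gene (y axis) in 5 comparisons, with limma's 95% intervals as bars (3 libraries a group). In Combo against Con the intervals of 6 genes lie below 0 and those of CCNE1 and CDC6 include it; E2F1 is lower in IR and slightly above IR in Combo.

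Of the other deoxynucleotide supply genes, 18 of 19 were measured, with TYMP at 0.546 FPKM. In Combo against Con 12 were lower and 6 higher (median -0.11), and 51.5% of all genes were lower. Of the 18, 4 had an unadjusted p under 0.05, all lower, against 7.69% of all genes, and 0 passed the adjusted threshold. SHMT1, DTYMK and DUT were among those 4. SHMT1, a folate enzyme, was at 4.32 ± 0.27 FPKM in Con, 3.51 ± 0.21 in IR, 4.13 ± 0.38 with Rx and 3.28 ± 0.24 with Combo (-0.31 ± 0.08, limma adjusted p = 0.15). DTYMK, the thymidylate kinase, was at 16.6 ± 1.9 in Con and 12.9 ± 1.6 in Combo, and DUT, which removes dUTP, at 16.8 ± 1.8 and 13.2 ± 1.3.

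Genes of de novo purine and pyrimidine synthesis, which feed ribonucleotides to the reductase, had median differences from Con smaller in size than those of the tested members. Of 16 listed, 15 were measured, with ADSL at 0.80 FPKM. All 15 were lower in Combo than in Con, as were 51.5% of all genes, with a median of -0.10 against -0.01 over all genes. Of the 15, 2 had an unadjusted p under 0.05, against 7.69% of all genes, and 0 passed the adjusted threshold. In Combo against IR, 5 of the 15 were lower at that unadjusted level, against 11.6% of all genes, and 0 passed the adjusted threshold. In IR, 12 of the 15 were higher than in Con (median 0.04), while 47.4% of all genes were lower. PFAS, a purine enzyme, was at 24.8 ± 1.6 FPKM in Con, 20.9 ± 2.4 in IR and 21.3 ± 1.8 in Combo (limma adjusted p in Combo 0.374). IMPDH2, on the route to guanine nucleotides, was at 145 ± 9 in Con, 155 ± 25 in IR and 122 ± 11 in Combo (adjusted p = 0.393). DHODH, of pyrimidine synthesis, was at 6.16 ± 0.34 in Con and 5.29 ± 0.14 in Combo, and PAICS, a purine enzyme, at 67.3 ± 4.4 and 61.3 ± 1.8.

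**Figure D3:**
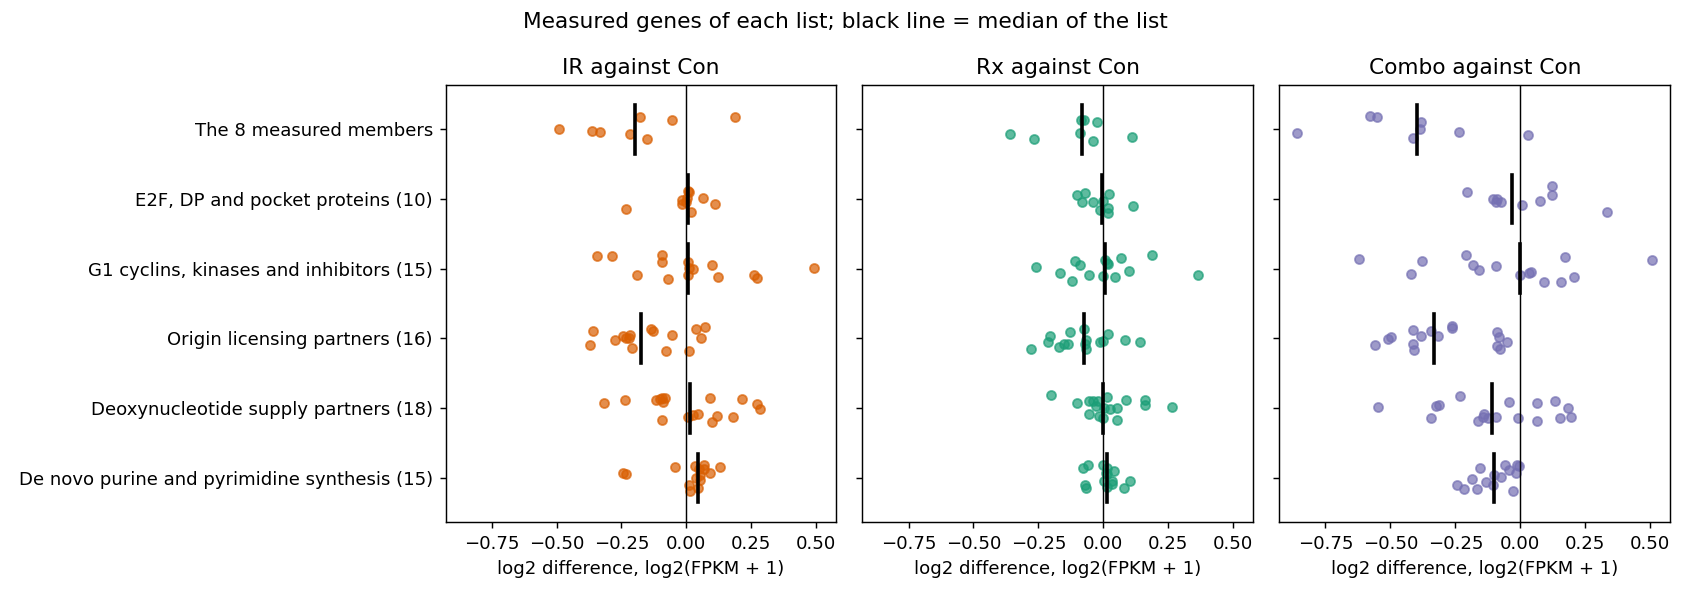
Difference in log2(FPKM + 1) from Con (x axis) of every measured gene of each list (y axis, number of genes in brackets; dots are spread vertically for sight only), with the median of the list as a black line. In Combo the 8 tested genes have a median of -0.40 and the licensing partners one of -0.33. The E2F, DP and pocket protein genes have a median of -0.03, with RBL1 lowest at -0.21 and E2F7 highest at 0.34.

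In limma with the 4 group means alone, the adjusted threshold of 0.05 was passed by 0 of the 8 tested genes in each of the 8 comparisons. Over all 13038 genes 0 passed (0%) except with QTP averaged over both radiation arms, where 12 genes (0.0920%) passed and none of the 8 was among them. Voom on the recovered reads likewise called 0 of the 8 in every comparison, and 33 genes of all with QTP averaged. Counts at an unadjusted p under 0.05 are given next, each with the share of all genes that were lower by the same rule. No tested member was higher at that level in any comparison.

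In IR against Con, 1 of the 8 (E2F1) was lower at an unadjusted p under 0.05, against 3.17% of all genes. Of the 8, 7 were lower and 1 higher, and 47.4% of all genes were lower. The median log2 difference of the 8 was -0.20, against 0.01 over all genes. It was -0.11 without Con 2 and -0.31 without Con 3. Voom had 3 of the 8 at that level. In this comparison 894 genes of any direction had an unadjusted p under 0.05 in limma and 981 in voom. E2F1 and RRM1 lay wholly below Con, as did 4.98% of all genes.

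In Rx against Con, 0 of the 8 were lower at an unadjusted p under 0.05 in limma, against 0.897% of all genes, and voom also had 0. In all, 425 genes had such a p in limma and 393 in voom. The median was -0.08, and it was 0.07 without Rx 3, so no direction can be read from it. None of the 10 genes lay wholly below Con, against 3.18% of all genes.

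In Combo against Con, 6 of the 8 (all but CCNE1 and CDC6) had an unadjusted p under 0.05, against 7.69% of all genes. The same 6 lay wholly below Con, against 12.8% of all genes. The median was -0.40, against -0.01 over all genes, and leaving out each library in turn kept it between -0.49 and -0.30. In all, 1719 genes had an unadjusted p under 0.05 in limma and 1854 in voom.

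In Combo against IR, 3 of the 8 (CDT1, TYMS and TK1) had an unadjusted p under 0.05, against 11.6% of all genes. In voom 0 of the 8 had such a p. The 3 genes and E2F2 lay wholly below IR, and 11.6% of all genes did. The median was -0.21, and it was -0.10 without Combo 3. In all, 2278 genes had such a p in limma and 2387 in voom, and 0 passed the adjusted threshold in both. Without IR 1, limma called 956 genes (7.33%), and none of the 8 was among them (lowest adjusted p 0.18, TYMS).

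In Combo against Rx, all 8 were lower, as were 54% of all genes. At an unadjusted p under 0.05, 3 of them (E2F1, CDT1 and RRM1) were lower, against 6.30% of all genes. The median was -0.32, against -0.01 over all genes. It was -0.21 without Combo 3. CDT1 and RRM1 lay wholly below Rx, as did 12.7% of all genes. In all, 1188 genes had such a p in limma and 1300 in voom. Combo is shared by these comparisons, and Con by the previous ones, so they are not independent of each other.

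Averaged over both QTP arms, radiation gave 5 of 8 lower at an unadjusted p under 0.05 (E2F1, CDT1, RRM1, RRM2 and TK1), against 5.17% of all genes, with a median of -0.30. Averaged over both radiation arms, QTP gave 1 of 8 (TK1), against 6.17%, with a median of -0.17, or -0.11 without Combo 3. The interaction gave 0 of 8, against 5.31%, and its lowest adjusted p among the 8 was 0.618 in limma. Its median was -0.14, and it ran from -0.25 without Con 2 to -0.03 without Combo 3. In all, 1109, 1483 and 995 genes had an unadjusted p under 0.05 in limma for radiation, QTP and the interaction, and 1180, 1528 and 1156 in voom. An excess of the joint treatment over the sum of its parts was therefore not detectable for any of the 8.

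The genes varied together within groups as well as between them, as the map of standardised levels shows. Each gene's log2(FPKM + 1) was expressed in SD from its own mean over the 12 libraries and averaged over the 10 genes. This average was 0.67, 1.43 and -0.44 in Con, 0.03, 0.09 and 0.10 in IR, 0.80, 0.59 and -0.87 in Rx, and -0.33, -0.64 and -1.44 in Combo. Con 2 had all 10 genes above their own mean, and Rx 3, Combo 2 and Combo 3 had 0. Con 3 and Rx 3, the lowest libraries of their groups, were also the shallowest of them, at 13188257 and 14925895 reads, and lay together on the second principal component of all genes (21.8 and 13.5, with the other 10 libraries at 7.18 or lower). Mitochondrial genes took 9.22% and 9.78% of their reads, the highest share in each group. Combo 3, the lowest library of all, held 18256090 reads and a mitochondrial share of 8.98%. It had the lowest value on the first principal component of all genes (-21.5), and IR 3 had the highest (28.7). The part of depth or RNA quality in this was not tested.

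**Figure D4:**
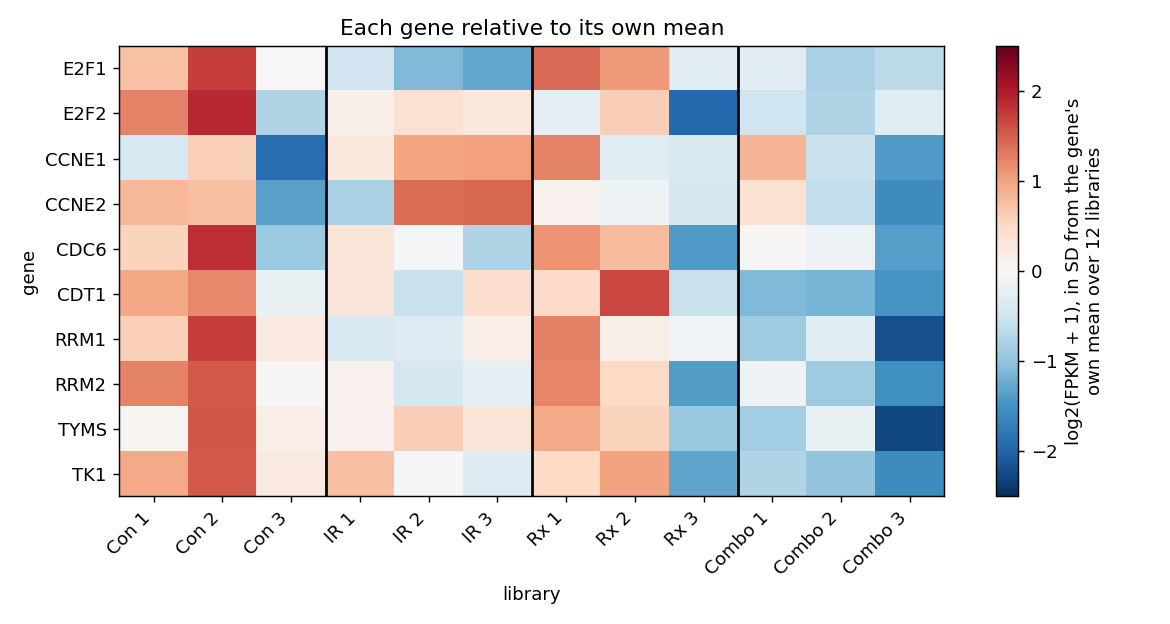
Each gene (rows) in each library (columns) as log2(FPKM + 1) in SD from the gene's own mean over the 12 libraries; red is above and blue below. Con 2 is red throughout, the 3 Combo libraries are mostly blue, Rx 3 is blue in all 10 genes, and CCNE1 and CCNE2 are red in IR 2 and IR 3.

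Pearson correlations over the 12 libraries are given as a description with no test, since libraries share depth and group means. Among the 8 genes other than the cyclin E genes, the 28 pairs had r of 0.45 to 0.91 with a median of 0.75. The 16 pairs of CCNE1 or CCNE2 with those 8 had r of 0.04 to 0.55 with a median of 0.38. CCNE1 with CCNE2 had r of 0.78. Over deviations from the group means, the median was 0.72 for the 28 pairs, 0.65 for CCNE1 with the 8 (0.36 to 0.77), 0.46 for CCNE2 with the 8 (0.20 to 0.55), and r was 0.81 for CCNE1 with CCNE2. Within groups CCNE1 thus went with the 8 more closely than its levels over all libraries show.

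The 8 protein-coding genes whose levels over the 12 libraries were most like the average of the 10 were taken from 10743 compared, which had a median r of 0.04, 55 of them above 0.9. They were AURKA, a mitotic kinase (r = 0.97), the helicase subunit MCM7 (0.97), the thymidylate kinase DTYMK (0.96), the mitotic kinase CDK1 (0.96), the ubiquitin-conjugating enzyme UBE2T (0.96), the mitotic kinase AURKB (0.96), the midbody protein CEP55 (0.96) and the survivin gene BIRC5 (0.95). Over deviations from the group means, r was 0.95 (AURKA), 0.98 (MCM7), 0.95 (DTYMK), 0.96 (CDK1), 0.95 (UBE2T), 0.99 (AURKB), 0.96 (CEP55) and 0.96 (BIRC5). These deviations are part of the levels by which the 8 were picked, so this is not a separate check. AURKA had mean levels of 9.11 FPKM in Con, 7.70 in IR, 8.15 with Rx and 5.96 with Combo, and BIRC5 of 10.5, 8.10, 9.34 and 5.42. MCM7 and DTYMK are also on the lists described above.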

How the data were processed

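RNA of 12 MSTO-211H libraries (total RNA by Trizol and RNeasy columns, NEBNext Ultra RNA kit, NovaSeq6000, per the labels' protocols) was analysed from 1 table. The authors deposited FPKM for 58735 genes, with gene lengths and coordinates. Per the submitters' processing notes, reads were placed on hg38. How they were aligned, counted by strand and scaled is not given in the sources used here.

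FPKM times gene length was divided in each library by a step taken to be 1 read, estimated from the smallest nonzero product. This gave whole numbers for 100% of nonzero values (tolerance 0.01 of a read). The 13038 genes averaging 1 FPKM or more were fitted as log2(FPKM + 1) with limma 3.58.1 in R 4.3.3, with all 12 libraries in 1 model of 4 group means, a mean-variance trend, moderated two-sided tests and Benjamini-Hochberg adjustment over all genes tested (threshold 0.05). Differences on this scale understate those of low genes. The script was tested on simulated data. There were 8 comparisons, the last 2 averaging over an arm. Alternatives were other pseudocounts and filters, median of ratios, TPM, no trend, protein-coding genes only, voom, a replicate block and leaving out libraries. Voom with the replicate block was chosen after seeing the data.

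The members, lists and tests were chosen with earlier results of these data known. From each list the 4 genes with the smallest p in Combo against Con were named, and E2F4, RB1, CDKN1A and RRM2B always; a further gene that the rule names is not reported here. Groups and replicate numbers came from titles. No replicate was a repeat of another by a chi-square of reads.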

Additional observations from a re-analysis of the deposited data

How the results depend on the processing

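The median difference of the 8 tested genes stayed within 0.19, the SD between libraries, of its value in every comparison and alternative run, though that of the interaction turned from -0.14 to 0.05 as TPM. That scaling moved the median interaction of all genes from -0.03 to 0.16, and their median in IR against Con from 0.01 to -0.10. The adjusted call of 0 members held in all alternatives except those with a replicate block. Same-numbered libraries correlated by -0.21 to 0.35 in their deviations, with 11 of 18 pairs above 0.1. Of the 12 libraries, 10 correlated best with their own number. The labels do not say what a number shares, and not every pair was above 0.1, so the main fit leaves the numbers out. Whether a number marks a shared culture or day was not tested, and the calls of members depend on this choice. With the replicate block, Combo against Con called 90 genes and 1 member (TK1, limma adjusted p = 0.047), and radiation averaged 3 genes. Voom with the replicate block called 287 genes and 3 members in Combo against Con (TK1, RRM2 and CDT1, adjusted p = 0.0103, 0.0249 and 0.0454), 46 genes in Combo against IR, 2 in IR against Con, 82 with QTP averaged, and 78 and 1 member (E2F1, 0.0376) with radiation averaged.

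With no filter on low values, 5 genes were called in IR and 5 in Combo against Con, 1 in Rx against Con, and 6 and 4 in Combo against IR and Rx. The interaction had 6, QTP averaged 6 and radiation averaged 5. The 12 genes with QTP averaged became 24 at a mean of at least 5 FPKM, 30 among protein-coding genes, 33 by voom, and 0 by median of ratios, as TPM, without a variance trend and without IR 3 and Combo 3 together. Leaving out 1 library gave 0 to 12 genes there, 0 to 3 in IR against Con and in the interaction, 0 to 956 in Combo against IR, and 0 to 1 with radiation averaged. Causes were not tested.

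Where the sign of a member turned, the turned value was at most 0.19 in size. With 1 library left out, IR against Con ran from -0.32 to 0.01 for CDC6 and -0.12 to 0.05 for TYMS. Rx against Con ran from -0.14 to 0.12 for E2F1, -0.24 to 0.11 for CDC6, -0.20 to 0.12 for CDT1, -0.17 to 0.00 for RRM1 and -0.18 to 0.04 for TYMS. CCNE1 in Combo against Con ran from -0.07 to 0.11, and CDC6 in Combo against IR from -0.15 to 0.02. QTP averaged ran from -0.02 to 0.11 for E2F1, -0.07 to 0.02 for CCNE1 and -0.16 to 0.02 for CDC6. The interaction ran from -0.01 to 0.24 for E2F1, -0.19 to 0.16 for CDC6, -0.20 to 0.00 for RRM1, -0.19 to 0.23 for RRM2 and -0.46 to 0.04 for TK1. As TPM, the interaction was 0.17 for CDC6, 0.08 for RRM1 and 0.02 for TK1, and CDC6 in Combo against IR was 0.00. The CDC6 interaction was 0.02 by median of ratios, 0.08 by voom and 0.09 by voom with the replicate block. Without IR 3 and Combo 3 the interaction was 0.03 for CDC6 and 0.04 for RRM1, and QTP averaged was 0.02 for CCNE1.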
